A study of Mus musculus with 2 samples.

Results

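The genes described here are the cytoplasmic actins Actb and Actg1 and the genes of 7 small proteins that bind actin monomers: the cofilins Cfl1 and Cfl2, destrin (Dstn), the profilins Pfn1 and Pfn2, and the beta-thymosins Tmsb4x and Tmsb10. They were chosen by symbol, and all 9 were found among the 45578 genes of the deposited table. Ribosome footprints, the fragments of mRNA left inside a ribosome after digestion with RNase I, were counted on polysomes of control brain at postnatal day 5 in 2 biological replicates (replicates 1 and 2). The mice were heterozygous Taiwanese mice, a spinal muscular atrophy colony, with the genotype Smn+/-; SMN2tg/0 on the FVB background. They therefore carried a disrupted mouse Smn allele together with a human SMN2 transgene, and wild-type brains were not analysed here. The samples formed a single group, so the comparisons concern the levels of the genes relative to each other and the difference between the replicate libraries.

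Actin is the subunit of microfilaments, which shape growth cones, dendritic spines and migrating neurons. Filaments grow from a pool of monomers. Beta-thymosins hold monomers in reserve, profilins exchange their nucleotide and deliver them to growing filament ends, and cofilins and destrin sever old filaments and return monomers to the pool. The supply of monomers and of their binding partners is replaced by translation, which footprints measure.

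The libraries held 1866831 footprints in replicate 1 and 5261878 in replicate 2. A floor of 3 footprints corresponds to 1.61 CPM (counts scaled to the library total) for replicate 1 and to 0.570 CPM for replicate 2, and every gene of the set was far above it. Smn1 had 71 and 253 footprints. Neuronal markers (Snap25, Stmn2, Tubb3, Map2 and Syt1) together had 4761 CPM in replicate 1 and 3698 CPM in replicate 2, and astrocyte and radial glial markers 4060 and 3184 CPM. In a whole tissue, fewer cells of a type and less mRNA on ribosomes per cell cannot be told apart.

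Actb had no promoter in the RefSeq table (GRCm38.p6) and could not be searched. Of the other 8 genes of the set, with promoters covering 250 bases before to 50 after the start of transcription, 1 held a CArG box. This is the site bound by serum response factor, a classical regulator of actin genes. The pattern is its own reverse complement, so both strands were covered. It is shown because the activity of that factor depends indirectly on the pool of free actin monomers. It lies in the promoter of Actg1, at chr11:120348566-120348595 on the minus strand, with the box in capitals from 90 to 81 bases before the start:
Actg1: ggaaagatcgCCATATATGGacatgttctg
A CArG box was present for 1.81% of the 27025 genes with a promoter in that table. This match is a description of sequence, and footprint counts do not measure promoter use.

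The actins carried most of the footprints of the set. Actb (ENSMUSG00000029580), the beta-actin gene, had 6625 footprints in replicate 1 and 12125 in replicate 2. These were 3549 CPM (95% Clopper-Pearson interval 3464 to 3635) and 2304 CPM (2264 to 2346). It had the highest mean CPM of the 16427 genes tested, which averaged 10 footprints or more over the libraries. Actg1 (ENSMUSG00000062825), the gamma-actin gene, had 4934 and 10357 footprints, or 2643 CPM (2570 to 2718) and 1968 CPM (1931 to 2007), and ranked 3. The 9 genes together took 0.867% of the footprints in replicate 1 and 0.594% in replicate 2, of which the actins accounted for 0.619% and 0.427% of the library.

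To set genes of different length side by side, counts were summed over the transcripts of a gene and expressed as footprint density, in CPM per kilobase of its longest annotated coding sequence. Per length, the smallest proteins came out beside the actins. Tmsb10 (ENSMUSG00000079523; 135 coding nucleotides) had 1009 and 1714 footprints and a density of 4004 CPM per kb in replicate 1 and 2413 in replicate 2, a mean of 3208 ± 1125 (SD, n = 2). That was the highest density among the 13349 tested genes with a coding sequence, in each library. Actb had a density of 3146 and 2043 CPM per kb (mean 2594 ± 780, SD, n = 2), rank 2. Tmsb4x (ENSMUSG00000049775; 153 coding nucleotides), the X-linked thymosin, had 719 and 1367 footprints and a density of 2517 and 1698 CPM per kb (mean 2108 ± 579, SD, n = 2), rank 5. Actg1 had 2343 and 1745 CPM per kb (mean 2044 ± 423, SD, n = 2), rank 6. The replicate values of these 4 genes overlapped in every pair except Tmsb10 with Actg1.

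The top rank of Tmsb10 depended on how length was treated. It held when only protein-coding transcripts were counted (3474 CPM per kb, with CPM over the total of those transcripts). With the coding sequence of the most counted transcript, Nnat was first and Tmsb10 ranked 2. Counting that transcript alone put Tmsb10 at rank 5, Tmsb4x at rank 9, Actb at rank 30 and Actg1 at rank 88. Dividing by the length of the whole transcript put Tmsb10 at rank 18 and Tmsb4x at rank 87, with Actb at rank 3 and Actg1 at rank 5. The table counts footprints over whole transcripts, so fragments outside the coding sequence enter these densities.

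The profilins had intermediate densities. Pfn1 (ENSMUSG00000018293), the widely expressed profilin, had 729 and 1484 footprints, with a density of 923 and 667 CPM per kb (mean 795 ± 181, SD, n = 2). Pfn2 (ENSMUSG00000027805), the profilin typical of neurons, had 682 and 1501 footprints and a density of 864 and 674 CPM per kb (mean 769 ± 134, SD, n = 2). Pfn1 was the higher in replicate 1 and Pfn2 in replicate 2, with overlapping counting intervals in each library, so no order between them was resolved.

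Of the filament-severing proteins, Cfl1 (ENSMUSG00000056201), the non-muscle cofilin, had 951 and 1528 footprints and a density of 745 and 425 CPM per kb (mean 585 ± 226, SD, n = 2). Dstn (ENSMUSG00000015932), which severs filaments and binds monomers as cofilin does, had 347 and 757 footprints and 373 and 289 CPM per kb (mean 331 ± 59.7, SD, n = 2). Cfl2 (ENSMUSG00000062929), best known as the cofilin of striated muscle, had 196 and 429 footprints and 210 and 163 CPM per kb (mean 186 ± 33.1, SD, n = 2). Even this lowest member lay at percentile 92.3 of the 13349 tested genes with a coding sequence, and Dstn lay at percentile 96.7. These places also depended on length: divided by the length of the whole transcript, Cfl2 ranked 3080 and Dstn 1035 of the 13349. Striated muscle markers other than actin were at or under 20 footprints in each library: Ckm had 3 and 4, Mylpf 1 and 4, Tnnt3 1 and 10, and Myh3 1 and 20.

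**Figure D1:**
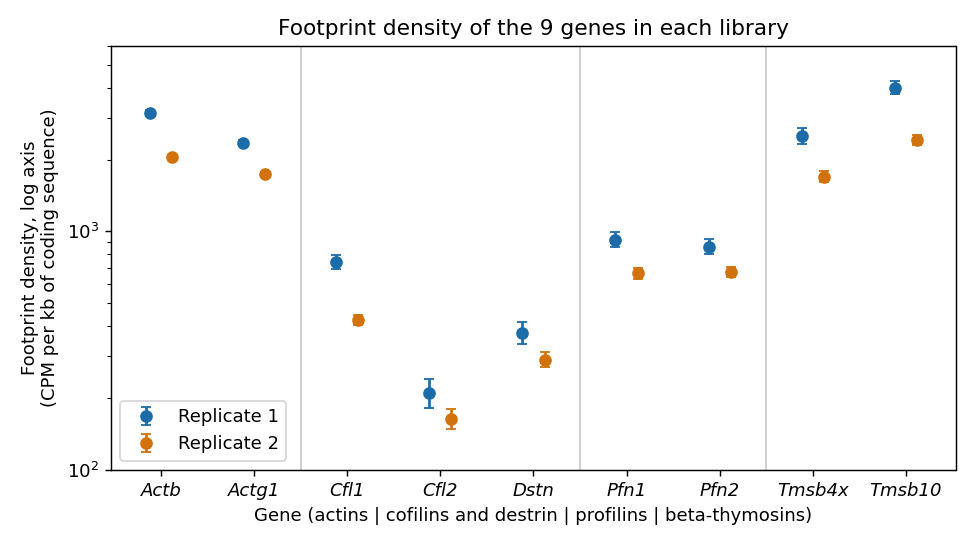
Footprint density of each gene in CPM per kb of coding sequence, on a log axis, for replicate 1 (blue) and replicate 2 (orange), with bars for the 95% counting interval. Tmsb10, Actb, Tmsb4x and Actg1 lie at 1698 CPM per kb or more in each library, the profilins between 667 and 923, and Cfl2 is lowest at 210 and 163.

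Ordered by mean density the genes ran Tmsb10, Actb, Tmsb4x, Actg1, Pfn1, Pfn2, Cfl1, Dstn and Cfl2. Of the 8 neighbouring pairs, Tmsb4x with Actg1 and Pfn1 with Pfn2 changed places between the libraries. The others kept their order in each library, with counting intervals that did not overlap. The replicate values themselves did not overlap at 3 steps, from Actg1 to Pfn1 (means 2.57-fold apart), from Cfl1 to Dstn (1.77-fold) and from Dstn to Cfl2 (1.78-fold). The order turned under other choices of transcript. With protein-coding transcripts alone Tmsb4x (2785 CPM per kb) lay above Actb (2502), and Cfl1 (772) above Pfn1 (556). With the most counted transcript alone Cfl1 (1129 CPM per kb) lay above Actg1 (787), and Dstn (644) above Pfn2 (583) and Pfn1 (505). In both settings CPM was over the total of the transcripts counted, so values compare only within a setting. For Cfl1 and Dstn, with 1 annotated transcript each, the most counted transcript held all footprints. That transcript held 19.6% and 20.1% of Actg1 footprints in replicates 1 and 2, 32.5% and 33.0% for Pfn1, and 40.9% and 36.8% for Pfn2. The order with that transcript alone therefore also reflects how many transcripts share a gene's footprints.

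Relative to each other the genes varied less than in absolute level. The summed density of the 7 monomer-binding genes was 1.76 times that of the actins in replicate 1 and 1.67 times in replicate 2 (mean 1.71 ± 0.0599, SD, n = 2). Beta-thymosins alone stood at 1.19 and 1.09 times the actins (mean 1.14 ± 0.0726, SD, n = 2), profilins at 0.326 and 0.354 (mean 0.340 ± 0.0202, SD, n = 2), and cofilins with destrin at 0.242 and 0.231 (mean 0.237 ± 0.00745, SD, n = 2). The ratio of all 7 to the actins was 0.576 ± 0.0127 (SD, n = 2) without the thymosins. It was 0.759 when whole transcript lengths were used and 3.20 when only the most counted transcript of each gene was used, so its side of 1 depends on these choices. These are ratios of footprint density and not of protein amounts.

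Within the actins, Actb took 57.3% of the footprints in replicate 1 (95% interval 56.4 to 58.2) and 53.9% in replicate 2 (53.3 to 54.6). These intervals did not overlap, so the balance shifted between the libraries by more than counting error, while Actb remained the larger in each. Among Cfl1, Cfl2 and Dstn, Cfl1 took 63.7% of the footprints in replicate 1 (61.2 to 66.1) and 56.3% in replicate 2 (54.4 to 58.2), which again did not overlap. In density its share was 56.1% and 48.5%, and using the coding length of Cfl2 (501 nucleotides) in place of the 684 annotated for the single Cfl1 transcript gave a mean of 59.9%. Pfn1 took 51.7% of profilin footprints (49.0 to 54.3) and 49.7% (47.9 to 51.5), with overlapping intervals. Tmsb4x took 41.6% of thymosin footprints (39.3 to 44.0) and 44.4% (42.6 to 46.1), also overlapping. The profilin balance was the least secure, since the mean Pfn1 share of density, 50.7%, was 35.3% with protein-coding transcripts alone and 73.7% with whole transcript lengths.

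**Figure D2:**
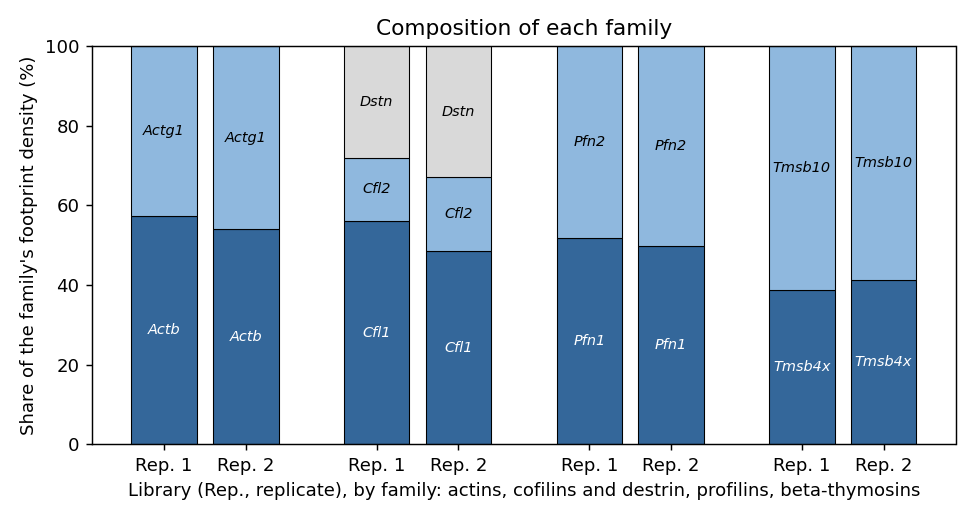
Share of each family's summed footprint density, in percent, held by each gene in replicate 1 and replicate 2. Actb makes up 57.3% and 53.9% of the actins, Cfl1 56.1% and 48.5% of its family, Pfn1 51.7% and 49.7% of the profilins, and Tmsb4x 38.6% and 41.3% of the thymosins.

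All 9 genes had a smaller part of the library in replicate 2 than in replicate 1. Each gene's counts, scaled by TMM (trimmed mean of M values), were compared by an exact binomial test, two-sided, and the p-values were adjusted by Benjamini-Hochberg over all 16427 genes tested. It compares 2 libraries of 1 group and covers counting noise alone. Each of the 9 was called lower at an adjusted p under 0.05, where 17.4% of all genes tested were called, 11.5% lower and 5.95% higher. Their log2 ratios, replicate 2 over replicate 1, ran from -0.94 to -0.48, with a median of -0.60 beside 0.01 for all genes tested. With library totals the ratios ran from -0.81 to -0.36 and all 9 were still called, at a background of 7.47% lower. TMM lies 0.13 below library totals for every gene.

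Cfl1 had the lowest ratio, at -0.94 (95% counting interval -1.05 to -0.82), and the exact binomial test gave it an adjusted p of 8.83e-50. Tmsb10 followed at -0.86 (-0.97 to -0.74, adjusted p = 3.53e-45 by the same exact test). Actb stood at -0.75 (-0.79 to -0.71) and Actg1 at -0.55 (-0.60 to -0.50), intervals that did not overlap. Tmsb4x had a ratio of -0.69 and Pfn1 of -0.60. Pfn2, Dstn and Cfl2 were the least different, at -0.48, -0.50 and -0.49, and the largest adjusted p of the set in the same test was 0.00142, for Cfl2. The counting interval of Cfl1 lies below those of Dstn (-0.68 to -0.31) and Cfl2 (-0.74 to -0.24), and the difference between these ratios was not tested against the spread between replicates.

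Genes of high density were in general lower in replicate 2. Of the 1013 other genes with a density at or above that of Cfl2, 574 (56.7%) were called lower and 57 higher, and their median log2 ratio was -0.29. When the trend of the ratio with footprint density was removed, over the 13349 genes with a coding sequence, 2 of the 9 were still called lower, at a background of 9.77%. These were Cfl1 (-0.54) and Actb (-0.07). Cfl2 (-0.29), Dstn (-0.20), Pfn1 (-0.14), Tmsb10 (-0.14), Tmsb4x (-0.06) and Pfn2 (-0.03) were then not called. Actg1 turned to 0.08 and was called higher, at an adjusted exact binomial p of 0.0103. With the trend taken on CPM per kb of the longest transcript instead, an alternative added after the data were seen, 6 were called lower. The background of genes called lower was then 8.13%. Actb lay at 0.02 and was not called, and Actg1 at 0.17 was called higher (adjusted exact binomial p = 3.26e-10). Cfl1 was the 1 gene called lower under both trends. Both trend tests took the fitted curve as exact, so their p-values and calls leave out its error. The curve stood at -0.678 on coding length and -0.773 on transcript length for Actb, and at -0.632 and -0.724 for Actg1. The small ratios left for Actb and Actg1 therefore change with the curve chosen. With the edgeR exact test and a common dispersion estimated from the same 2 libraries, 0 of the 9 genes were called and 11 genes in all, each higher in replicate 2. In that edgeR test 4 of the 9 and 719 of the 16427 genes tested had an unadjusted p under 0.05. These unadjusted values are given as description only. The dispersion of that test takes the differences between the 2 libraries as noise, so few calls can arise. Its 0 calls therefore cannot show that the genes were equal.

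**Figure D3:**
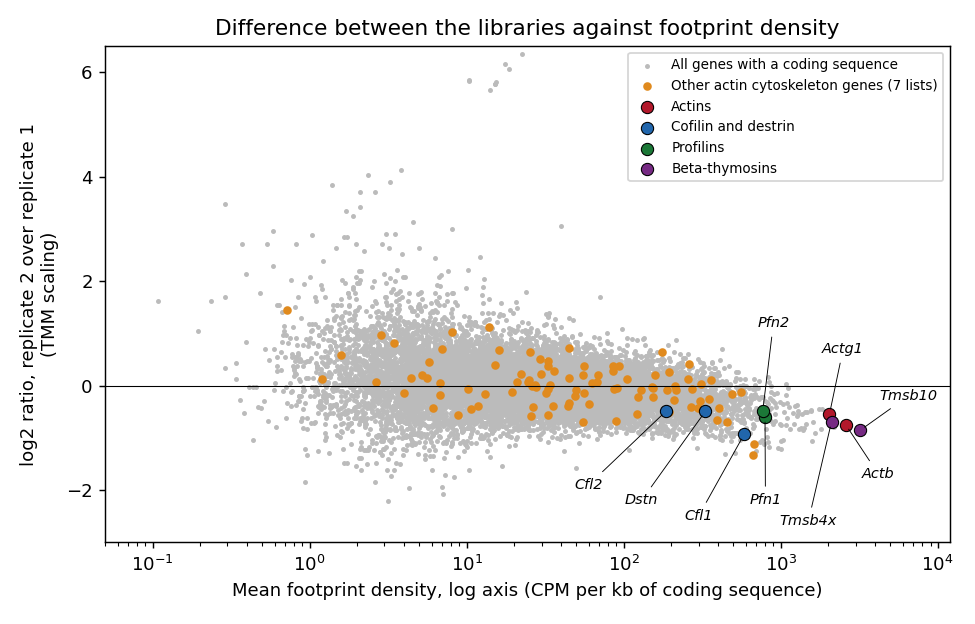
Log2 ratio of replicate 2 over replicate 1 (TMM scaling) against mean footprint density in CPM per kb on a log axis. Grey points are the 13349 tested genes with a coding sequence, orange points other actin cytoskeleton genes, and outlined points the 9 genes, which lie at the dense end with ratios from -0.94 to -0.48.

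**Figure D4:**
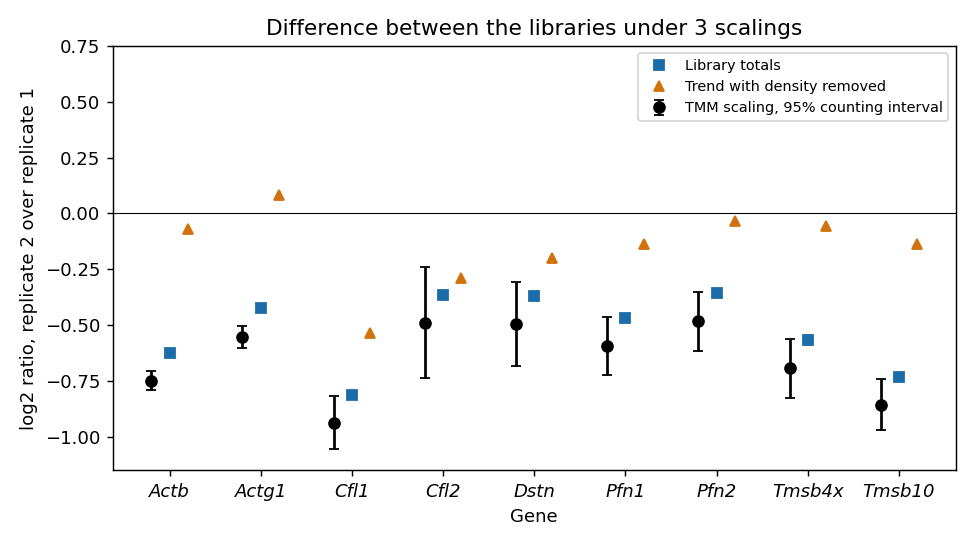
Log2 ratio of replicate 2 over replicate 1 for each gene under TMM scaling (black, with 95% counting interval), library totals (blue squares) and after removal of the trend with density (orange triangles). All 9 lie below 0 under TMM and library totals; with the trend removed Actg1 lies at 0.08, Actb at -0.07 and Cfl1 lowest at -0.54.

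Marker genes are given beside these values, at the background of 11.5% of genes called lower and of 56.7% among dense genes. Of the neuronal markers 4 of 5 were called lower in replicate 2, and of the astrocyte and radial glial markers 4 of 5. Summed microglial markers stood at 191 and 185 CPM, endothelial markers at 233 and 206 CPM, smooth muscle and pericyte markers at 93.2 and 81.5 CPM, and red cell markers at 1498 and 1055 CPM, with 1 of 5, 1 of 4, 1 of 2 and 2 of 3 tested markers called lower. Within the endothelial list Cldn5 was the 1 called lower (-0.92), and Flt1 (0.44) and Kdr (0.48) were above 0 and not called. Meningeal fibroblast markers stood at 590.3 and 524 CPM, with Col1a1 and Col1a2 called lower and Dcn higher (0.62). Striated muscle markers stood at 78.2 and 57.4 CPM, most of it Acta1, which was the 1 called of 2 tested. Of the oligodendrocyte lineage, Mbp stood at 231 and 410.1 CPM and was called higher, and Olig1 (171 and 104 CPM) and Sox10 (55.7 and 44.1 CPM) were called lower. No marker of these lists was at 0 in either library. The part of cell composition in the difference was not tested.

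The same footprints were also compared by transcript for the 9 genes, a comparison added after the gene values were seen. Gene counts are sums of these transcript counts, so the transcript calls are no further support for the gene calls. The 3 genes with 1 annotated transcript in the table, Cfl1, Cfl2 and Dstn, are free of any division between isoforms. The 9 genes had 36 annotated transcripts, and 33 were called lower in replicate 2 by the exact binomial test over 43655 transcripts, of which 5.08% were called, 4.26% lower and 0.815% higher. The exceptions were Pfn2-002, Pfn2-004 and Actb-009. Actb-009 is a processed transcript of 241 nucleotides with 4 and 44 footprints. Its log2 ratio was 1.84, against -0.74 for the full-length Actb-001, but its adjusted exact binomial p of 0.0986 missed the threshold.

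Footprints were not limited to transcripts annotated as coding. Protein-coding transcripts held 72.6% and 73.5% of Actb footprints, 62.5% and 62.6% of Actg1 footprints, 52.1% and 54.04% of Pfn1 footprints, and 82.2% and 81.7% of Tmsb10 footprints, in replicates 1 and 2. In Actb the retained introns Actb-005 and Actb-008 had 0.511 and 0.523 footprints per nucleotide in replicate 1, and the full-length Actb-001 had 0.851. Pfn1-004, a target of nonsense-mediated decay, had 219 and 407 footprints beside 237 and 490 for the coding Pfn1-001. Such transcripts share exons with the coding ones, and a fragment of about 30 nucleotides in a shared exon does not tell them apart, so these values describe how fragments were placed.

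Near-identical genes raise the same limit between genes. Annotated actin pseudogenes drew footprints as well: Actg-ps1, with 238 and 493, and Gm8464, listed by RefSeq as Actb-ps1, with 289 and 605. Pseudogenes were sought only by a member symbol or Actg followed by -ps, with RefSeq synonyms. Those of any gene of the set under other names would be missed. Over its 408 nucleotides Actg-ps1 had 0.583 and 1.21 footprints per nucleotide, near the 0.494 and 1.07 of Actg1-001, and its log2 ratio of -0.57 lay close to the -0.55 of Actg1. Gm8464 had 0.131 and 0.275 footprints per nucleotide, far below the 0.851 and 1.56 of Actb-001, and a log2 ratio of -0.56 against -0.75 for Actb. Actg1-001 and Actb-001 are each 1 of 9 annotated transcripts. Actg1-001 held 19.6% and 20.1% of Actg1 footprints in replicates 1 and 2, and Actb-001 held 24.6% and 24.7% of Actb footprints. Per nucleotide, each pseudogene is therefore set beside 1 transcript and not beside the whole gene, which drew more. Adding both pseudogenes to the actins changed the ratio of monomer-binding genes to actins from 1.71 to 1.64. Acta1, the skeletal muscle actin, had 140 and 264 footprints, and Acta2, the smooth muscle actin, had 80 and 166. Both were called lower with TMM, at log2 ratios of -0.71 and -0.57, and Acta2 was not called with library totals (-0.44). Actg2, the other smooth muscle actin, had 21 and 62 footprints and was not called (-0.06). Of the other smooth muscle and pericyte markers, Myh11 had 2 and 14 footprints, Cnn1 1 and 2, Tagln 10 and 9, and Pdgfrb 81 and 238. Whether footprints of the muscle actins came from Actb or Actg1 was not tested. Actc1, the cardiac actin, had 5 and 27 footprints and was not called (log2 ratio 0.81).

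The rest of the actin cytoskeleton held genes called in each direction. Of 106 genes on 7 lists, 102 were in the table and 96 were tested, of which 19 (19.8%) were called lower, 11 higher and 66 not, with a median log2 ratio of -0.02. Among all genes tested 11.5% were called lower and 5.95% higher, with a median of 0.01. The 22 of them with a density at or above that of Cfl2 included 11 called lower, beside 56.7% for all such genes. With library totals each list's median lies 0.13 higher. The background for the list counts below changes with the setting. With library totals 1227 of 16427 genes were called lower (7.47%) and 1896 higher. With the density trend removed 1304 of 13349 genes were called lower (9.77%) and 1243 higher.

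Among other monomer-binding and turnover factors, 3 of 16 tested genes were called lower and 1 higher (median -0.05 with TMM, 0.08 with library totals). Cotl1, coactosin-like protein, was the densest at 455 ± 125 CPM per kb (SD, n = 2) and the lowest in ratio, at -0.69. Gmfb, a cofilin relative that acts on branched filaments, stood at 271 ± 7.72 CPM per kb and was not called (log2 ratio -0.07). Pfn4, with 6 and 40 footprints, had the highest ratio, 1.12, and was not called. The cofilin kinases Limk1 (33.9 CPM per kb) and Limk2 (56.3) were not called. Their list had 1 of 6 called lower, Tesk1 at -0.59, and its highest ratio was 0.39 for the phosphatase Ssh2, not called with TMM and called higher with library totals (0.51).

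The Arp2/3 complex nucleates branched filaments. With its activators it had 4 genes called lower and 4 higher of 20 with TMM (median -0.05), 3 lower and 7 higher with library totals (median 0.07), and 1 lower and 9 higher with the density trend removed (median 0.23). Arpc3 had 560.1 ± 0.690 CPM per kb (SD, n = 2) and a ratio of -0.12, not called with TMM and called higher with the trend removed (0.27), while Arpc5 had 394 ± 101 CPM per kb and was called lower at -0.65. Arpc1b had the highest ratio, 0.63, not called with TMM and called higher with library totals (0.76). Formins and other nucleators had 2 of 13 called lower with TMM, Daam1 at -0.40 and Fmn2 at -0.57. With library totals Fmn2 was not called and Fmnl2 was called higher (0.34). With TMM Fmnl2 (0.21) and Fmn1 (1.44, on 3 and 25 footprints) were not called. Daam1 was the densest of that list, at 44.3 CPM per kb.

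Capping and severing proteins had 4 of 10 genes called higher against 1 lower with TMM (median 0.13), 5 against 0 with library totals (median 0.25), and 4 against 0 with the density trend removed. Svil had the highest ratio at 0.97, on 22 and 133 footprints, and was not called with the trend removed (0.77). The capping protein subunit Capzb, at 360 ± 40.4 CPM per kb (SD, n = 2), was not called with TMM (0.10) and was called higher with library totals (0.23) and with the trend removed (0.41). The neuronal tropomodulin Tmod2, at 306 ± 24.6 CPM per kb, was called lower at -0.29 with TMM, and was called with neither of the other settings. The lowest ratio of the list, -0.33 for Tmod3, was not called. Of 27 filament-binding and crosslinking proteins 6 were called lower and 2 higher with TMM (median -0.04), 5 and 4 with library totals (median 0.08), and 3 and 3 with the density trend removed (median 0.06). The membrane-bound actin crosslinkers Marcksl1 and Marcks were the densest, at 671 ± 317 and 669 ± 373 CPM per kb (SD, n = 2). Their ratios of -1.13 and -1.33 were lower than that of any of the 9 genes. Tpm2, on 8 and 40 footprints, had the highest ratio, 0.70, and was not called.

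Genes outside the set with the most similar pair of densities were found by the distance between log2(density + 1) values over the 2 libraries, among 7598 genes averaging 100 footprints or more. Nnat was nearest to Tmsb4x (distance 0.0839), to Actb (0.340) and to Tmsb10 (0.762), with densities of 2595 and 1785 CPM per kb. Apoe was nearest to Actg1 (0.0140), Dpysl2 to Cfl1 (0.00158), Actr1a to Cfl2 (0.00542), Myl12b to Dstn (0.0422), Nsg2 to Pfn1 (0.0297) and Hnrnpa2b1 to Pfn2 (0.0454).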

How the data were processed

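The deposited table holds raw counts of ribosome footprints per annotated transcript, with the annotated lengths of transcripts and coding sequences, per the file headers. Fragments of 25 to 35 nucleotides were selected by the authors, per the labels' protocols. The submitters' processing notes name Trimmomatic 0.36, Bowtie2 2.2.6, SAMtools and the build GRCm38.p4; the treatment of fragments that match several transcripts, of PCR copies and of strand is not given in the sources used here. In 49 pairs of transcripts of 1 gene with identical lengths, the mean squared difference over the sum of the counts was 1.03, near the 1 of independent counts, so transcripts of a gene were summed. Symbols are transcript names without their final number.

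CPM values are counts over the library total, computed here, and density is CPM per kb of the longest coding sequence. Where only some transcripts were counted, the total was that of the transcripts counted. TMM factors (edgeR 4.0.16) were 0.957 and 1.04. The exact binomial test (scipy 1.17.1) used genes averaging 10 counts or more, a threshold of 0.05, and 0.5 in place of a count of 0 in ratios. A quasi-likelihood fit that compares the 2 libraries leaves no residual degrees of freedom, and 1 group gives no other contrast. The test was tested on simulated data. The simulated counts held changes of known size and counting noise alone, so they do not cover a wider spread between replicates. Counting intervals and the floor cover counting error only, since PCR copies are not independent molecules. The replicates are biological per the labels; the mean chi-square per gene of 5.92 lies above the 1 of sampling noise. DESeq2 1.42.0 size factors, other lengths and transcript choices, and removal of a lowess trend with density (over genes with a coding sequence) were alternatives; a trend on CPM per kb of the longest transcript was added after the data were seen.

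Other genes named are, per list, the 2 densest and those with the highest and lowest ratio, and the gene nearest to each member. The members and lists were chosen with earlier results of these data known. Of the listed genes, 4 had no row under their symbol and were not analysed here. Protein sequences were not used here. A further oligodendrocyte marker is not reported here.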

Additional observations from a re-analysis of the deposited data

How the results depend on the processing

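All 9 genes were called lower in replicate 2 with library totals, DESeq2 size factors and all genes with a count. They were also called lower with protein-coding transcripts only and with the most counted transcript. In these 5 settings 45 of 45 single-gene results kept their direction and call. Library totals and DESeq2 size factors shift every ratio by a constant, and taking all genes with a count leaves the ratios unchanged. The 45 are therefore not independent checks, and the edgeR and trend settings below are not among them. With the density trend removed 2 were called lower, Cfl1 and Actb, 6 were not called and Actg1 (0.081) reversed and was called higher. With the trend on CPM per transcript length, 6 were called lower, Pfn2 was not called, and Actb (0.023, not called) and Actg1 (0.17, called higher) reversed. Calls under both trends leave out the error of the fitted curve. With the edgeR exact test 0 were called. Over all genes 2861 were called, 11 with the edgeR exact test and 1444 with the most counted transcript; library totals turned 1883 lower and 978 higher into 1227 and 1896. A test without either replicate was not possible. The ratio of monomer-binding to actin density, 1.71, was 2.21 with protein-coding transcripts, 3.20 with the most counted transcript, 0.759 with whole transcript lengths, 1.77 with the coding sequence of the most counted transcript, 0.576 without the thymosins and 1.64 with pseudogene counts added; leaving out a replicate gave 1.67 to 1.76. The Actb share of 55.6% was 59.4% with protein-coding transcripts and 60.9% with the most counted transcript, and 53.9 to 57.3% leaving out a replicate. The Cfl1 share of 52.3% was 74.0% with whole transcript lengths and 59.9% with the Cfl2 coding length, and 48.5 to 56.1% leaving out a replicate. The Pfn1 share of 50.7% was 35.3% with protein-coding transcripts, 46.5% with the most counted transcript and 73.7% with whole transcript lengths, and 49.7 to 51.7% leaving out a replicate. The Tmsb4x share of 39.95% was 44.8, 44.9, 35.2 and 42.99% with protein-coding transcripts, the most counted transcript, whole transcript lengths and the coding sequence of the most counted transcript, and 38.6 to 41.3% leaving out a replicate. Of 36 member densities under these alternatives 23 moved by more than the SD between replicates. With protein-coding transcripts or the most counted transcript, CPM was over the total of the transcripts counted. Cfl2, with a single transcript and unchanged counts and length, thereby went from 186 to 246 and 362 CPM per kb. The 23 therefore include moves from this change of total. They also include moves that the settings fix in advance. Dividing by the whole transcript, which is longer than its coding sequence, lowers every density. Counting 1 transcript leaves out part of the footprints of genes with several. The cause of the other changes was not tested beyond the change of length or transcripts itself. Pseudogene counts, the Cfl2 coding length and the trend on transcript length were chosen after the data were examined. No paired analysis was possible because the series has a single group.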
